A study of Mus musculus with 6 samples.

Results

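The core circadian clock of the mouse eye wall was followed through 10 genes, Arntl (also called Bmal1), Clock, Per1, Per2, Per3, Cry1, Cry2, Nr1d1, Nr1d2 and Dbp. They were taken by symbol from a named list, and all 10 were found among the 15663 genes listed for each library. RNA was sequenced from the RPE-choroid, which is the retinal pigment epithelium (RPE) with the vascular choroid behind it, in 3 control mice and 3 mice with subretinal fibrosis (SRF). All mice were male C57BL/6J, 8 to 10 weeks old, and lived on a 12-h light cycle. In the SRF mice 4 burns were set in each eye by laser and every lesion was burned again after 10 days, with dissection another 20 days on, whereas the control mice were healthy and had no laser. The hour at which tissue was taken, and whether control mice were anaesthetized or had their pupils dilated, are not given in the sources used here. The 6 libraries are separate mice, and the comparison asks whether the clock genes lay at the same levels in both groups, as they would be read for tissue taken at a single clock phase.

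The clock is a feedback loop of transcription that runs in nearly every cell. ARNTL and CLOCK pair on E-box sequences and switch on the Per and Cry genes, whose proteins return to the nucleus and silence that pair, and they also switch on Nr1d1, Nr1d2 and Dbp. NR1D1 and NR1D2 (REV-ERB alpha and beta) repress Arntl through ROR elements, DBP activates through D-box sequences, and in mouse tissues Arntl RNA is high around the end of the night while Nr1d1, Dbp and Per3 RNA is high in the day. The retina, the RPE and the choroid carry such clocks of their own.

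These sequence elements were looked up in the stretch from 250 bases before to 50 bases after each transcription start, as given by RefSeq on GRCm38.p6. Of the 10 clock genes 9 matched a window, the exception being Per2, and 6 held at least 1 of the elements searched on both strands. Any such element was present in 19.5% of all 32851 windows. That share is per window and not per gene, and Arntl, Clock and Per1 had more than 1 window. The windows of Per3 and Ciart are printed because these genes had the smallest p-values among the clock genes and the other loop components, and those of Per1, Cry1 and Arntl because they hold the E-box and ROR element of the loop. The start lies after base 250 of each window, and capitals mark the elements. Per3 (chr4:151044616-151044915, minus strand) holds the D-box TTATGTAA at 205 and 158 bases before its start, an element found in 0.938% of windows. Ciart (chr3:95882179-95882478, minus strand), a repressor of ARNTL and CLOCK, holds the E-box CACGTG at 116, 58 and 44 bases before its start. The same E-box, found in 7.15% of windows, lies 166 bases before a start of Per1 (chr11:69098699-69098998, plus strand). Cry1 (chr10:85185005-85185304, minus strand) holds the E-box at 60 bases and the variant CACGTT, found in 4.68% of windows, at 79 bases before its start, there read on the opposite strand and so printed as AACGTG. The second of the Arntl windows (chr7:113207261-113207560, plus strand) holds the ROR element TAGGTCA, found in 2.61% of windows, 30 bases after its start. These matches are descriptions of the letters.
Per3: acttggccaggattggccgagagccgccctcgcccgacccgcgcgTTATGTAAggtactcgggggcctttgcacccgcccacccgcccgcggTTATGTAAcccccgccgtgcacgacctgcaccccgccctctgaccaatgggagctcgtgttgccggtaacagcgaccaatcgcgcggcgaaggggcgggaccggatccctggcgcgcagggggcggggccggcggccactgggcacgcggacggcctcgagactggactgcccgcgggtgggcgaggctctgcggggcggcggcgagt
Ciart: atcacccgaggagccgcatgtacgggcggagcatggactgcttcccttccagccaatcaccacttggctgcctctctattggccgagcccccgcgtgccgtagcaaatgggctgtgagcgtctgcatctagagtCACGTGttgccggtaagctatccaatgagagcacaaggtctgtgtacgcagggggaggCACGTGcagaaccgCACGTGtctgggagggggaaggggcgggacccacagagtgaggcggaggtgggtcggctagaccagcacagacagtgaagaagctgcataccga
Per1: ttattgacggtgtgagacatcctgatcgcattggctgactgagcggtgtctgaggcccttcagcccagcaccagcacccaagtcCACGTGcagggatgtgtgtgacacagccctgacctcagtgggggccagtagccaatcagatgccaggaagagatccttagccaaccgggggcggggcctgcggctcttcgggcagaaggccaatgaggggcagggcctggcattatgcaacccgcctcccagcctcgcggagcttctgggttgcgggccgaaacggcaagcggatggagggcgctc
Cry1: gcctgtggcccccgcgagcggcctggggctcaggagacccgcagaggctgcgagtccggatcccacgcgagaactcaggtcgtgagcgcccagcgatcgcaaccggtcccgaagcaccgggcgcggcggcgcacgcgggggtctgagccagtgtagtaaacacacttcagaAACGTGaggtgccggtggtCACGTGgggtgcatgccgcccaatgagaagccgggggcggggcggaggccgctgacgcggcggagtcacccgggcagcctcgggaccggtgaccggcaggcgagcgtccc
Arntl: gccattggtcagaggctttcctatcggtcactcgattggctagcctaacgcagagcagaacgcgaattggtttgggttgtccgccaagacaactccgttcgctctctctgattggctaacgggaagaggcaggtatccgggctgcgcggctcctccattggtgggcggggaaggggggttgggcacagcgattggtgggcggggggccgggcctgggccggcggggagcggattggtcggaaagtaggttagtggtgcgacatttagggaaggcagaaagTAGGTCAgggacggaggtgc

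Among the clock genes the remaining matches were CACGTT in the windows of Cry2, at 166 bases before its start, and of Nr1d1, at 28 bases before its start. The windows of Clock, Nr1d2 and Dbp held none of these letters. The other forms searched were the D-box TTACGTAA (0.119% of windows), the ROR element TGGGTCA (3.98%) and the cAMP response element TGACGTCA (1.79%), and none of these was in a window of the 10 clock genes.

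Before the clock values, 2 libraries need to be named because they stand apart. The summed level of 15 photoreceptor genes, all 15 of them in the tables, was 12855 CPM (counts scaled to library size) in control 1 and 12742 CPM in SRF 3, and 756 to 1766 CPM in the other 4 libraries. RPE RNA also differed between the groups, with a summed level of 10 RPE genes of 42824 to 50315 CPM in control and 29125 to 38869 CPM in SRF libraries, and 8 macrophage genes summed to 1077 to 1401 CPM in control and 2660 to 4027 CPM in SRF libraries. All 8 macrophage and all 10 RPE genes were in the tables. The summed levels of choroidal endothelium, inner retina and skeletal muscle genes overlapped between the groups, and those of 4 melanocyte genes were 4483 to 5845 CPM in control and 6157 to 6214 CPM in SRF libraries. By mean log2 CPM the melanocyte genes overlapped, at 9.82 to 10.14 in control and 10.09 to 10.13 in SRF libraries. On that scale, however, 9 inner retina genes were at 4.99 in control 1 and 5.17 in SRF 3, and at 2.86 to 3.14 in the other 4 libraries. Control 1 and SRF 3 were thus rich in inner retina RNA as well as photoreceptor RNA. The part of these cell types in the clock gene values was not tested. Total counts per library were 13667310 to 24356023. In such bulk tissue fewer cells of a type and less RNA per cell cannot be told apart, and results are given with and without control 1 and SRF 3 where these libraries bear on them.

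Across the clock genes, 7 were lower and 3 higher in SRF than in control, with a median log2 fold change of -0.27 beside 0.00 over all tested genes. A call was set at a Benjamini-Hochberg adjusted p under 0.05 together with an absolute log2 fold change of 0.5 or more. By the quasi-likelihood test of edgeR none of the 10 was called, and 0% of all 13454 tested genes were. DESeq2 called none of the 10 either, beside 1.14% of all genes. At an unadjusted p under 0.05, Per2, Per3 and Dbp were lower and none was higher, whereas 2.85% of all genes were lower and 4.16% higher at that p, 7.01% in all. The same 3 genes were the clock genes whose groups did not overlap, all lower in SRF, beside 6.43% of all genes lower and 6.71% higher, 13.1% in all. Without SRF 3, Cry1, Cry2 and Nr1d2 were also lower without overlap, 6 in all, beside 17% of all genes lower and 17.9% higher. Without control 1, 5 clock genes did not overlap, with Per1 also lower and Arntl higher, beside 12.2% of all genes in each direction.

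**Figure D1:**
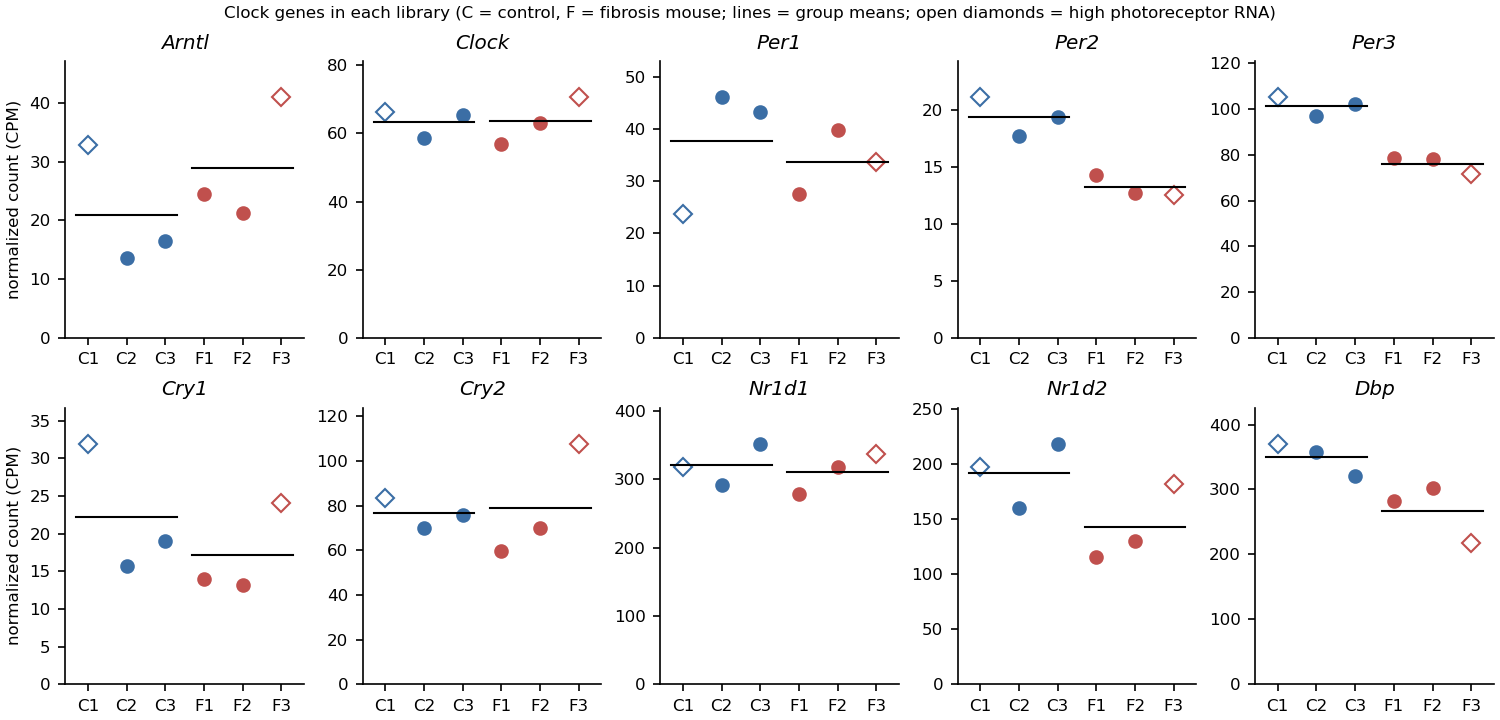
TMM-normalized CPM of the 10 clock genes in each of the 3 control and 3 SRF (fibrosis) libraries, 1 point a library, with the group mean as a line. Per2, Per3 and Dbp show no overlap between the groups. The highest value lies in control 1 or fibrosis 3 for Arntl, Cry1 and Cry2, and also for Clock, Per2, Per3 and Dbp.

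The activators Arntl and Clock did not differ beyond the spread between mice. Arntl (ENSMUSG00000055116, GRCm38 chr7:113207465-113314126), which encodes the partner whose RNA cycles, was at 32.8, 13.7 and 16.5 CPM in control 1 to 3 and at 24.5, 21.3 and 40.9 CPM in SRF 1 to 3. The highest library of each group was the one rich in photoreceptor RNA, and the groups overlap. The log2 fold change of Arntl was 0.47 (SE 0.39, adjusted p = 0.943 with edgeR), and the mean of control 1 and SRF 3 was 1.94 times that of the other 4 libraries. Without these 2 libraries it was 0.60 (SE 0.18, adjusted p = 0.160 with edgeR), on 2 mice a group. The part of photoreceptor and inner retina RNA in the Arntl values was not tested.

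Clock (ENSMUSG00000029238, chr5:76209868-76304792) had nearly the same level in every mouse. Its levels were 66.2, 58.6 and 65.3 CPM in control and 56.8, 63.1 and 70.6 CPM in SRF libraries. Its log2 fold change was 0.00 (SE 0.12, adjusted p = 0.9999 with edgeR). Npas2, which can take the place of CLOCK beside ARNTL, rested on low counts but separated the groups. The counts were 15, 40 and 18 in control and 63, 69 and 49 in SRF libraries. Npas2 was at 1.12, 2.17 and 0.751 CPM in control and at 3.41, 3.84 and 2.74 CPM in SRF libraries. Every SRF value was above every control value, a gap that 6.71% of all genes showed in this direction. The log2 fold change was 1.31 (SE 0.48, adjusted p = 0.604 with edgeR), which did not pass the adjustment.

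Among the Period genes, which encode the inhibitors that are made and lost each day, Per3 and Per2 lay lower in every SRF mouse than in any control mouse. Per3 (ENSMUSG00000028957, chr4:151003652-151044665) was at 105, 97.1 and 102 CPM in control and at 78.8, 78.2 and 71.5 CPM in SRF libraries. The mice of a group lay close together, and the SD of log2 CPM within groups, 0.0694, was at the 3.02 percentile of all tested genes. Means were 102 ± 4.10 and 76.2 ± 4.09 CPM (SD, n = 3 each), a ratio of 0.750. Per3 had a log2 fold change of -0.41 (SE 0.10, adjusted p = 0.384 with edgeR). With DESeq2 the adjusted p was 0.0348, a level that 0.431% of all genes reached in this direction and 0.825% in the other, 1.26% in all, but the fold was under the limit of 0.5. Control 1 and SRF 3 did not carry this difference, which was -0.34 (SE 0.12, adjusted p = 0.217 with edgeR) without them.

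Per2 (ENSMUSG00000055866, chr1:91415982-91459324) had the lowest level per length of the 10 and the larger fold of the pair. Its levels were 21.1, 17.7 and 19.3 CPM in control and 14.3, 12.7 and 12.5 CPM in SRF libraries. These rest on 283, 326 and 463 counts in control and on 264, 228 and 224 counts in SRF libraries. The lowest control value was above the highest SRF value. Per2 had a log2 fold change of -0.55 (SE 0.15, adjusted p = 0.413 with edgeR, 0.155 with DESeq2), and -0.46 (SE 0.18, adjusted p = 0.255 with edgeR) without control 1 and SRF 3.

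Per1 (ENSMUSG00000020893, chr11:69095217-69109960), a Period gene that responds quickly to light, cAMP and glucocorticoids, gave no such separation. It was at 23.7, 46.1 and 43.2 CPM in control and at 27.6, 39.8 and 33.8 CPM in SRF libraries. The lowest value of all was in control 1, below every SRF library, and the other 2 controls were the highest. The log2 fold change was -0.16 (SE 0.27, adjusted p = 0.9999 with edgeR), and -0.41 (SE 0.19, adjusted p = 0.300 with edgeR) without control 1 and SRF 3. Among the 3 Period genes the within-group SD was largest for Per1, at 0.419 on the log2 scale.

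The cryptochromes, partners of the Period proteins in silencing ARNTL and CLOCK, were highest in the libraries rich in photoreceptor RNA, and neither separated the groups. Cry1 (ENSMUSG00000020038, chr10:85131700-85185064) was at 31.9, 15.6 and 19.0 CPM in control and at 14.0, 13.2 and 24.1 CPM in SRF libraries. Control 1 and SRF 3 were the highest of their groups, 1.81 times the other 4 libraries on average, and the log2 fold change was -0.37 (SE 0.34, adjusted p = 0.953 with edgeR). Without control 1 and SRF 3 it was -0.35 (SE 0.19, adjusted p = 0.381 with edgeR). Cry2 (ENSMUSG00000068742, chr2:92403646-92434043) was at 83.5, 70.0 and 76.0 CPM in control and at 59.9, 69.8 and 108 CPM in SRF libraries. SRF 3 was above every other library and the other 2 SRF libraries were below every control. The log2 fold change of Cry2 was 0.05 (SE 0.22, adjusted p = 0.9999 with edgeR) with all mice and -0.17 (SE 0.14) without control 1 and SRF 3, so its sign rests on these libraries.

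Of the REV-ERB genes, whose proteins repress Arntl, neither separated the groups. Nr1d1 (ENSMUSG00000020889, chr11:98767932-98775333) was at 317, 292 and 352 CPM in control and at 278, 319 and 337 CPM in SRF libraries. The groups overlap almost wholly, with a log2 fold change of -0.04 (SE 0.13, adjusted p = 0.9999 with edgeR). Its exons share 263 of 3077 bases with Thra on the opposite strand, and without strand in the counting reads there cannot be told apart. Nr1d2 (ENSMUSG00000021775, chr14:18204054-18239127) was at 197, 160 and 218 CPM in control and at 116, 130 and 181 CPM in SRF libraries. SRF 1 and SRF 2 were below every control, and SRF 3 lay between the controls. The log2 fold change of Nr1d2 was -0.43 (SE 0.20, adjusted p = 0.764 with edgeR), and -0.62 (SE 0.17, adjusted p = 0.126 with edgeR) without control 1 and SRF 3.

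Dbp (ENSMUSG00000059824, chr7:45705088-45710203), the output factor that carries the rhythm to other genes, was lower in every SRF mouse. It was at 371, 358 and 321 CPM in control and at 282, 303 and 217 CPM in SRF libraries. The lowest control lay above the highest SRF library, and SRF 3 was the lowest of all. Means were 350 ± 25.7 and 267 ± 44.8 CPM (SD, n = 3 each), a ratio of 0.763. For Dbp the log2 fold change was -0.39 (SE 0.15, adjusted p = 0.660 with edgeR, 0.363 with DESeq2). Without control 1 and SRF 3 it was -0.22 (SE 0.13, adjusted p = 0.424 with edgeR). Dbp shares 539 of its 2993 exon bases with Sphk2 on the opposite strand.

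**Figure D2:**
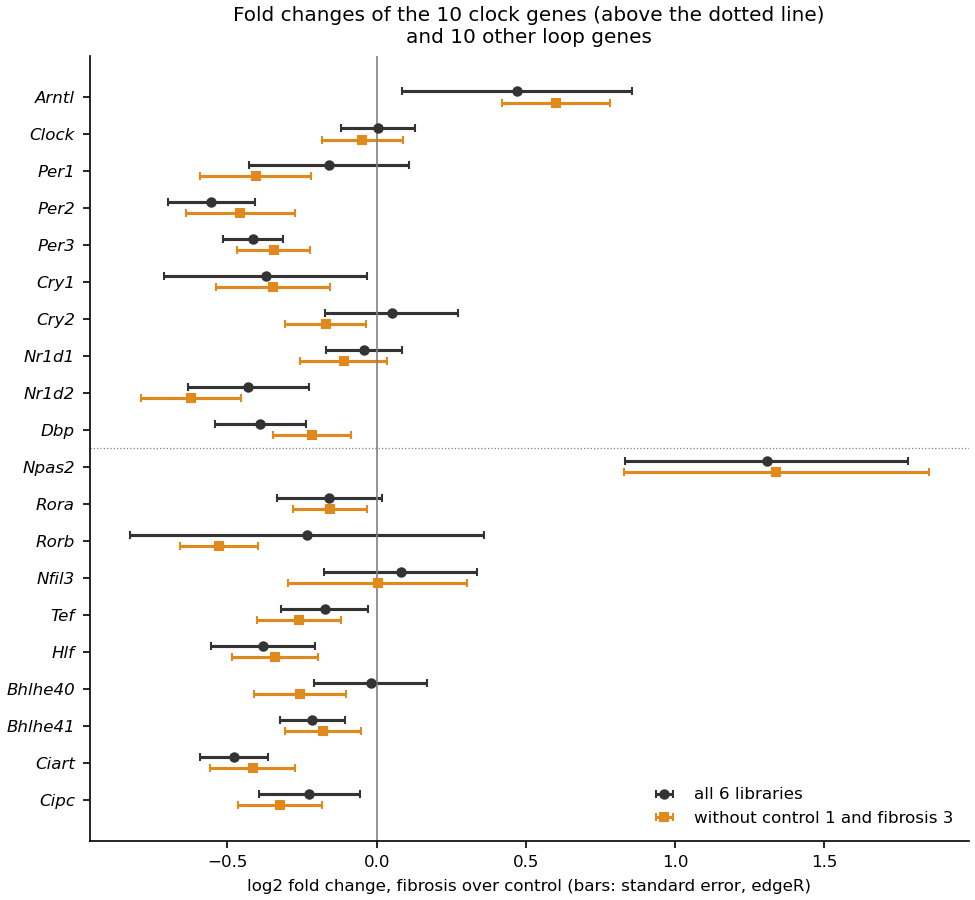
Log2 fold change of SRF over control for the 10 clock genes and 10 of the tested other loop components, with bars of 1 SE, from the edgeR fit with all 6 libraries and from that without the 2 libraries rich in photoreceptor RNA. Per2 at -0.55, Per3 at -0.41 and Ciart at -0.48 lie below 0 in both fits, and Npas2 lies farthest above 0 at 1.31.

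When control 1 and SRF 3 were left out, 9 of the 10 clock genes were lower in SRF and the median log2 fold change was -0.28. In the remaining 4 libraries the groups did not overlap for 8 clock genes. Arntl was higher in both SRF libraries, and Per1, Per2, Per3, Cry1, Cry2, Nr1d2 and Dbp were lower, while Clock and Nr1d1 overlapped. With 2 mice a group such a gap is common, at 25.5% of all genes higher and 24.2% lower, and no clock gene was called in this fit beside 1.14% of all genes. At an unadjusted p under 0.05 in it, Arntl was higher and Per2, Per3 and Nr1d2 lower, beside 9.39% of all genes higher and 8.1% lower.

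**Figure D3:**
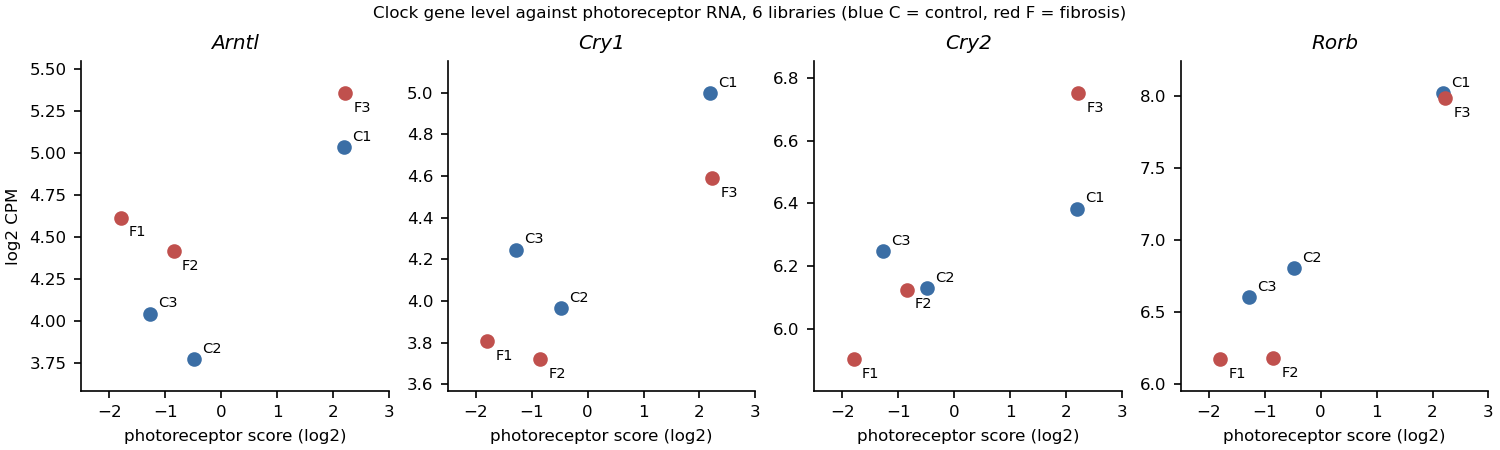
Log2 CPM of Arntl, Cry1, Cry2 and Rorb in each library against the photoreceptor score of that library, the centred mean log2 CPM of 15 photoreceptor genes, with control and SRF libraries in separate colours. Control 1 and SRF 3 lie apart at scores of 2.19 and 2.22, and the other 4 libraries lie between -1.80 and -0.48.

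The order of the clock genes by level was read from FPKM, the authors' values scaled per length of transcript. Dbp had the highest mean over the 6 libraries, 182 FPKM (range 127 to 219.8), followed by Nr1d1 at 116 FPKM (range 104 to 127). These ranges touch, and SRF 3 is the library in which Dbp was lowest. Within every library, however, Dbp was above Nr1d1, in SRF 3 at 126.7 against 124.8 FPKM. A gap then separated Nr1d1 from Nr1d2 at 36.0 FPKM, whose range overlapped that of Cry2 at 20.1 FPKM, and that of Cry2 overlapped Per3 at 15.2 FPKM. Within every library Nr1d2 was above Cry2, and Cry2 was above Per3. Per1 at 9.12, Arntl at 8.90, Clock at 6.84 and Cry1 at 6.46 FPKM formed a group in which each range overlapped the next. Per2 was lowest at 2.77 FPKM (range 2.17 to 3.55), below the range of every other clock gene. In all 6 libraries Dbp and Nr1d1 were far above Arntl on this scale. The difference of log2(FPKM + 0.1) between Dbp and Arntl was 3.09 to 5.45, and that between Nr1d1 and Arntl was 3.06 to 4.45.

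Within a library the balance of a day gene against Arntl does not depend on how that library was scaled, and it was compared between mice on the log2 CPM scale as a description. Dbp minus Arntl was 3.50, 4.71 and 4.29 in control and 3.53, 3.83 and 2.41 in SRF libraries. The group means were 4.17 ± 0.61 and 3.25 ± 0.75 (SD, n = 3 each), and control 1 lay among the SRF libraries. Nr1d1 minus Arntl was 3.28, 4.42 and 4.42 in control and 3.51, 3.90 and 3.04 in SRF libraries, with means of 4.04 ± 0.66 and 3.48 ± 0.43 (SD, n = 3 each). Per3 minus Arntl was 1.68, 2.83 and 2.63 in control and 1.69, 1.88 and 0.80 in SRF libraries, with means of 2.38 ± 0.61 and 1.46 ± 0.57 (SD, n = 3 each).

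All 3 balances overlapped between the groups with 6 libraries, with control 1 among the SRF values. The differences of SRF from control were -0.91 for Dbp, -0.55 for Nr1d1 and -0.93 for Per3, each minus Arntl. Without control 1 and SRF 3 they were -0.82, -0.71 and -0.95, with both controls above both SRF libraries in all 3. All 3 subtract Arntl, which was itself higher in both SRF libraries there, so they are not separate observations. Nr1d1 taken by itself overlapped there, with a log2 fold change of -0.11. Of all single genes, 25.5% were higher and 24.2% lower without overlap in these 4 libraries. No such share was taken for differences of 2 genes. The hour of collection cannot be told apart from the laser treatment as far as the sources used here go.

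**Figure D4:**
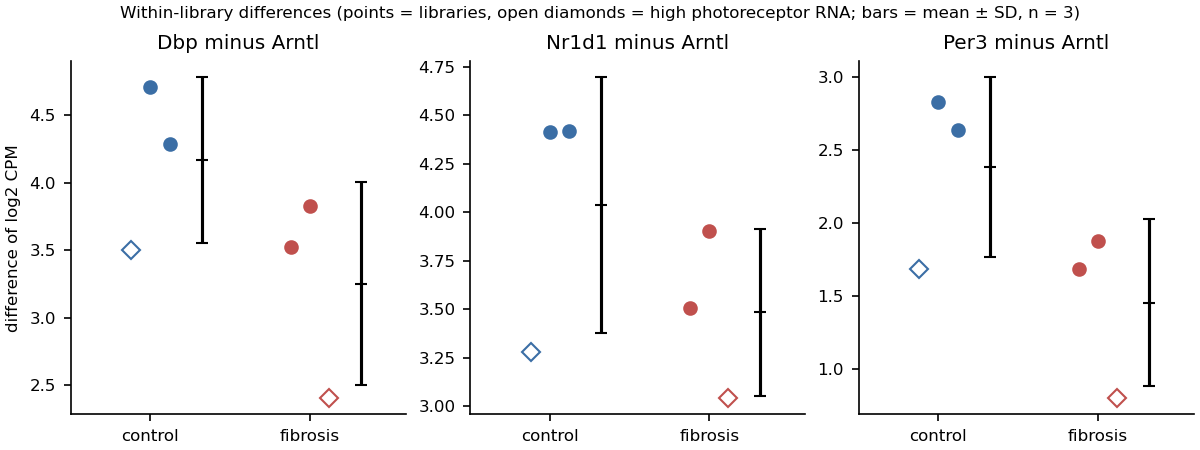
Log2 CPM of Dbp, Nr1d1 and Per3, each minus log2 CPM of Arntl, in the 3 control and 3 SRF (fibrosis) libraries. In each panel control 2 and control 3 are the highest, control 1 lies among the SRF libraries, and SRF 3 is the lowest.

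Of 12 other components of the loop, 11 were tested and Arntl2, at 19 to 39 counts, did not reach the count limit. Of the 11, 3 were higher and 8 lower in SRF, with a median log2 fold change of -0.17. At an unadjusted p under 0.05 Npas2 was higher and Ciart lower, beside 4.16% of all genes higher and 2.85% lower. None was called by edgeR or by DESeq2. Ciart (also called Chrono) was at 42.5, 37.5 and 36.3 CPM in control and at 26.9, 28.5 and 28.2 CPM in SRF libraries. The 3 SRF libraries lay close together and below every control, and the log2 fold change was -0.48 (SE 0.11, adjusted p = 0.374 with edgeR, 0.0760 with DESeq2). Bhlhe41 (DEC2), a repressor that binds E-boxes, was at 512, 443 and 479 CPM in control and at 396, 417 and 422 CPM in SRF libraries. Its groups did not overlap either, with a log2 fold change of -0.22 (SE 0.11, adjusted p = 0.787 with edgeR). Its relative Bhlhe40 gave -0.02 (SE 0.19).

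The ROR genes encode the activators that compete with REV-ERB for ROR elements. Rorb, a gene of photoreceptors and other retinal neurons, was at 259, 112 and 97.2 CPM in control and at 72.2, 72.6 and 253 CPM in SRF libraries. Its level in control 1 and SRF 3 was 2.90 times that in the other 4 libraries, and its log2 fold change was -0.23 (SE 0.59). Without control 1 and SRF 3 the log2 fold change of Rorb was -0.53 (SE 0.13, adjusted p = 0.103 with edgeR). Rora gave -0.16 (SE 0.18), with control 1 and SRF 3 at 1.33 times the other 4, and -0.16 (SE 0.12) without them.

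The D-box factors related to DBP had values on the same side as Dbp but within their spread. Hlf was at 82.9, 57.7 and 67.1 CPM in control and at 46.3, 52.2 and 60.9 CPM in SRF libraries, with a log2 fold change of -0.38 (SE 0.17, adjusted p = 0.754 with edgeR). Tef gave -0.17 (SE 0.15), and Nfil3, the repressor that competes for D-boxes, gave 0.08 (SE 0.26). Cipc, a partner of CLOCK that inhibits it, gave -0.23 (SE 0.17). For Hlf, Tef, Nfil3 and Cipc the groups overlap.

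Of 12 genes for kinases, ubiquitin ligases and other modifiers of clock proteins, 11 were tested, 4 higher and 7 lower, with a median log2 fold change of -0.04 and none at an unadjusted p under 0.05. Fbxl21 did not reach the count limit. Csnk1e, a kinase of the Period proteins, had a log2 fold change of 0.42 (SE 0.23), and of 0.68 (SE 0.19) without control 1 and SRF 3. Usp2, a deubiquitinase with a strong rhythm in many tissues, was at 75.1, 76.1 and 75.5 CPM in control and at 46.1, 59.6 and 75.8 CPM in SRF libraries. SRF 3 was level with the controls while SRF 1 and SRF 2 were below them, and the log2 fold change was -0.32 (SE 0.18, adjusted p = 0.849 with edgeR). Without control 1 and SRF 3 it was -0.52 (SE 0.15, adjusted p = 0.148 with edgeR). Nono, a binding partner of Period proteins, gave -0.14 (SE 0.11). Of 8 clock-controlled output genes all 8 were lower in SRF with a median of -0.16, beside 6678 lower of 13449 tested symbols. None of the 8 reached an unadjusted p under 0.05. Hlf, Usp2, Tef and Tsc22d3 among them also stand in other lists given here.

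Of 4 genes known for a daily rhythm in the retina, Drd4 and Adcy1 were highest in the libraries rich in photoreceptor RNA. Drd4, a dopamine receptor of photoreceptors, was at 31.3, 6.29 and 3.46 CPM in control and at 2.54, 5.85 and 45.3 CPM in SRF libraries. Control 1 and SRF 3 were 8.44 times the other 4 libraries, and the log2 fold change of 0.40 (SE 1.17) became -0.21 (SE 0.46) without them. Adcy1, an adenylyl cyclase, was 2.80 times higher in control 1 and SRF 3 than in the other 4, with a log2 fold change of -0.16 (SE 0.57). Without these libraries it was -0.07 (SE 0.24). Opn4, the gene of melanopsin, gave -0.20 (SE 0.30), and Aanat, the gene of an enzyme in melatonin synthesis, gave -0.02 (SE 0.17). None of these 4 genes was at an unadjusted p under 0.05, and their median was -0.09.

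Since Per1 answers to cAMP and CREB and to glucocorticoids, genes with those inputs were set beside it. Of 12 CREB and immediate early genes 11 were tested, Fosb not reaching the count limit, and all 11 were lower in SRF, with a median log2 fold change of -1.21. At an unadjusted p under 0.05, 7 were lower beside 2.85% of all genes, and DESeq2 called 4 lower beside 0.334% of all genes. With all mice edgeR called none, and without control 1 and SRF 3 it called 7, beside 1.14% of all genes called in either direction. The list had been chosen with lower genes in it already known, so that its count is a description. Nr4a1, an orphan nuclear receptor, was at 78.8, 364 and 290 CPM in control and at 27.8, 23.4 and 48.8 CPM in SRF libraries, with a log2 fold change of -2.87 (SE 0.58, adjusted p = 0.287 with edgeR, 0.00413 with DESeq2). Arc, an activity gene of neurons, was at 3.20, 6.56 and 4.63 CPM in control and at 1.08, 0.557 and 1.34 CPM in SRF libraries, a log2 fold change of -2.27 (SE 0.47, adjusted p = 0.298 with edgeR, 0.00432 with DESeq2). The groups did not overlap for Nr4a1 and Arc and did overlap for Per1.

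Without control 1 and SRF 3 the 7 genes called in this list were Egr1, Egr3, Nr4a1, Nr4a2, Arc, Sik1 and Dusp1, with log2 fold changes of -3.67 to -1.37, and DESeq2 with all mice called Egr3, Nr4a1, Arc and Sik1. Control 1 had the lowest control value for Per1 and for Nr4a1. Of 8 glucocorticoid-responsive genes 4 were higher and 4 lower, with a median of -0.02, and 1 was at an unadjusted p under 0.05, beside 7.01% of all genes. That gene was Cdkn1a, a cell cycle inhibitor also induced by p53, at 26.4, 33.5 and 30.2 CPM in control and at 62.8, 54.0 and 37.1 CPM in SRF libraries, with a log2 fold change of 0.77 (SE 0.21, adjusted p = 0.421 with edgeR), and of 0.87 (SE 0.15, adjusted p = 0.0325 with edgeR) without control 1 and SRF 3. Fkbp5, a feedback inhibitor of the glucocorticoid receptor, gave 0.17 (SE 0.22), and Sgk1, a kinase, gave -0.34 (SE 0.16). Without control 1 and SRF 3, Fkbp5 gave 0.24 (SE 0.24) and Sgk1 -0.55 (SE 0.13). Tsc22d3 (GILZ) was at 147, 215 and 292 CPM in control and at 128, 182 and 194 CPM in SRF libraries, again lowest among controls in control 1, with a log2 fold change of -0.38 (SE 0.27). Without control 1 and SRF 3 it was -0.71 (SE 0.20, adjusted p = 0.136 with edgeR).

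**Figure D5:**
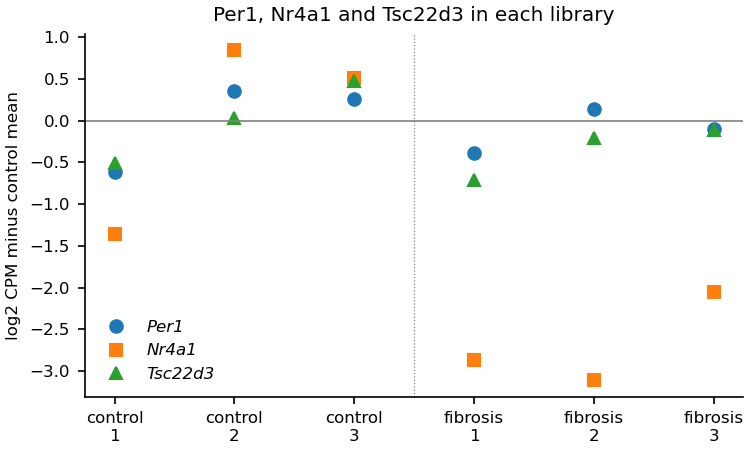
Log2 CPM of Per1, Nr4a1 and Tsc22d3 in each library minus the mean of the 3 control libraries, 1 symbol a gene. Control 1 is the lowest control for all 3 genes, and Nr4a1 is the only 1 of the 3 whose SRF (fibrosis) libraries all lie below every control.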

How the data were processed

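RPE-choroid RNA from 3 control and 3 SRF mice was sequenced as 6 libraries. The authors filtered reads with fastp, counted them per gene with StringTie, and deposited raw counts per gene together with FPKM, a value per kilobase of transcript and mapped library size. The aligner, genome build, annotation and strand setting are not given in the sources used here. Symbols and positions came from GENCODE M21 on GRCm38, which holds 15659 of the 15663 identifiers.

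Counts were tested with edgeR 4.0.16 (TMM, glmQLFit and glmQLFTest at the installed defaults, group only) in R 4.3.3, over the 13454 genes that exceeded 50 counts in 2 or more samples, the filter of the study. A call needed a Benjamini-Hochberg adjusted p under 0.05 together with an absolute log2 fold change of 0.5 or more. All 10 clock genes passed the filter. CPM values of single genes use TMM factors, whereas the summed marker levels were scaled to total counts alone. The errors beside means are SDs of mice. The median standard error of a log2 fold change was 0.188. Alternatives were DESeq2 1.42.0, limma 3.58.1, other normalizations and filters, a replicate block, a photoreceptor covariate and left-out libraries. The fits were tested on simulated data. For single values an exact permutation test with 3 mice against 3 cannot go below 0.1, so none is given.

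The clock genes and the gene lists were chosen with earlier results of these data known. Named were all 10 clock genes, every detected other loop component, the 2 genes with the smallest p in each direction and any called gene of each further list, and the 5 genes most like Arntl and Dbp. Egr1, Egr3, Nr4a2, Sik1 and Dusp1 were named after their values were seen. Results that name 2 genes of the lists are not reported here, though counts and medians of the lists include them.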

Additional observations from a re-analysis of the deposited data

How the results depend on the processing

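No clock gene was called under any alternative, and over 190 alternative values of the 10 clock genes 171 kept their direction and side of the threshold. Per2, Per3, Cry1, Nr1d2, Dbp, Arntl, Npas2 and Ciart kept their sign in every alternative. Log2 fold changes were -0.62 to -0.37 for Per2, -0.45 to -0.33 for Per3 (adjusted p 0.0348 to 0.9999 over 19 settings), -0.49 to -0.22 for Dbp, -0.64 to -0.31 for Nr1d2 and 0.13 to 0.94 for Arntl. Those of Npas2 were 0.57 to 1.84.

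Of all genes, edgeR called 0 with an unadjusted count of 943 at p under 0.05, and leaving out control 1 and SRF 3 gave 154. DESeq2 called 153 when fitted to the filtered genes and 153 when fitted to all genes. Both were counted only over the 13454 genes that passed the filter. The newer edgeR form (legacy = FALSE), upper quartile scaling, no count filter, filterByExpr, voom and the photoreceptor covariate each gave 1, limma on log2(FPKM + 0.1) and on log2(FPKM + 1) gave 2, and leaving out each library gave 0 to 5, with 5 without control 1. Genes called in the further lists numbered 0 with all mice, 4 with DESeq2 in both forms, 8 without control 1 and SRF 3, and 0 to 0 when single libraries were left out. The clock genes without overlap between groups numbered 3 to 6 when single libraries were left out, with 5 without control 1 and 6 without SRF 3. Of all genes 24.4% did not overlap without control 1 and 34.9% without SRF 3, beside 13.1% with all mice. The 3 balances against Arntl were then -1.25 to -0.49 for Dbp, -0.93 to -0.33 for Nr1d1 and -1.28 to -0.60 for Per3.

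The following log2 fold changes changed sign, and the cause was not tested. Clock was -0.00116 with DESeq2, -0.00640 with DESeq2 over all genes, -0.00107 with RLE scaling, -4.0e-05 with no count filter, -8.9e-05 with voom and -0.0479 without control 1 and SRF 3. Cry2 was -0.17 and Drd4 -0.21 without those libraries. With limma on FPKM with pseudocounts of 0.1 and 1, Per1 was 0.0372 and 0.0305, Nr1d1 0.00674 and 0.00669, and Bhlhe40 0.0400 and 0.0393. Adcy1 was 0.0115 with the photoreceptor covariate. Leaving out single libraries gave -0.0794 to 0.0741 for Clock, -0.40 to 0.00847 for Per1, -0.24 to 0.21 for Cry2, -0.11 to 0.0318 for Nr1d1, -1.11 to 0.34 for Rorb, -0.0839 to 0.20 for Nfil3, -0.17 to 0.13 for Bhlhe40, -1.69 to 1.88 for Drd4, -0.40 to 0.14 for Opn4, -0.79 to 0.55 for Adcy1 and -0.0278 to 0.29 for Fkbp5.

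With a replicate block on the mouse numbers 0 genes were called, Clock was -0.000141 and Drd4 -0.0227, and Per3 was -0.42. Deviations of same-numbered mice from their group means correlated at -0.48, 0.49 and -0.30. Deviations from a group mean are not independent, so these values cannot settle whether same-numbered mice were handled together.

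With 3 mice a group the standard errors of the clock genes were 0.10 to 0.39 on the log2 scale, and a Per3 difference of -0.41 with a standard error of 0.10 was still not called by edgeR (adjusted p = 0.384). Each mouse gave 1 library, so levels and not a rhythm were measured.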

Other observations

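By the likeness of log2 CPM over the 6 libraries, the tested genes outside the lists most like Arntl were Gdap1l1 (Pearson r 0.990), Mks1 (0.987), Slitrk6 (0.984), Rps6kl1 (0.982) and Isl1 (0.980), and 243 genes had an r over 0.9 with it. Like Arntl, all 5 were highest in control 1 and SRF 3, with Isl1 at 16.5 and 22.5 CPM there and at 1.03 to 3.73 CPM in the other 4 libraries. The genes most like Dbp were Ybey (r 0.987), Aldh5a1 (0.985), Mterf4 (0.982), Slc4a2 (0.977) and C330021F23Rik (0.975), and 147 genes had an r over 0.9. All 5 had their lowest value in SRF 3, as Dbp did. These are descriptions over 6 libraries that share depth and tissue composition within each library.

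The deposited FPKM and the counts of Per1 ran less closely together than those of most genes. Per1 was at 5.82, 10.4 and 11.1 FPKM in control and at 7.01, 9.65 and 10.8 FPKM in SRF libraries, and its FPKM per CPM varied by 1.36 times between libraries, beside a median of 1.03 times over all tested genes, which put it at the 93.3 percentile.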
